A study of Rattus norvegicus with 8 samples.

Results

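The 40 genes described here encode receptors for neuropeptides and peptide hormones, and they were selected by name, as the non-control probes of the array that carry 1 of 40 receptor symbols. They are 40 of the 26269 gene names on the array and are read by 57 of its 30367 probes. The series holds whole hypothalamus from lactating Wistar rat dams on postpartum day 7, with 4 dams exposed to TCDD and 4 control dams, each on 1 single-colour array. TCDD is the reference dioxin and acts through the aryl hydrocarbon receptor, a ligand-activated transcription factor. Neither the labels nor the design text state the dose, route or timing of TCDD, the age of the dams or what the control dams received. The comparison asks which of these receptors were above background in the maternal hypothalamus and whether any differed between TCDD and control dams.

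Neuropeptides are cut from precursor proteins, stored in dense-core vesicles and released from axons, dendrites and neurosecretory terminals. Almost all of their receptors are membrane proteins with several transmembrane helices that signal through G proteins, and their mRNAs are typically scarce and limited to small groups of neurons. In the hypothalamus of a nursing mother these systems take part in milk ejection, maternal care, the large food intake of lactation, and the control of pituitary hormones.

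Each receptor was read by probes of 60 bases, and what a probe reads decides what can be said of its gene. The sequences that the results turn on are shown here from the deposited scanner files, with positions on the rat build rn4. Those limited to 30 bases are stretches of the probe, and capitals mark the hexamer AATAAA, the usual polyadenylation signal. The oxytocin receptor probe (chr4:148314115-148314174, minus strand) is shown because it was above background on a single array, and the delta opioid receptor probe (chr5:150979864-150979923, minus strand) because it gave the only unadjusted p under 0.05.
Oxtr probe A_64_P092259: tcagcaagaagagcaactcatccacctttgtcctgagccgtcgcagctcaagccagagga
Oprd1 probe A_64_P020053: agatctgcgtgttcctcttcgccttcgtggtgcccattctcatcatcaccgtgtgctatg
The next probes are shown because probes of the same gene gave different detection. For Cckbr the 3′ probe (chr1:163166890-163166949, plus strand, bases 1 to 30 shown) was above background on all 8 arrays and the upstream probe (chr1:163165347-163165406) on 1.
Cckbr probe A_64_P101130: actaatctaccccatatccaaccttgtgca
Cckbr probe A_64_P013932: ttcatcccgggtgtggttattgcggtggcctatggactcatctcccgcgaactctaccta
For Ntsr1 the 3′ probe (chr3:169633062-169633121, plus strand, bases 20 to 49 shown) was above background on all 8 arrays and the upstream probe (chr3:169630841-169630900) on 1.
Ntsr1 probe A_64_P124090: tcctcatatctcAATAAAAATAAAggaagc
Ntsr1 probe A_64_P124086: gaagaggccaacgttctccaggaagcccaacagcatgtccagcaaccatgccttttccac
For Oprm1, whose 3 probes carry 3 different transcript accessions, the outer probes (chr1:37588681-37588740, bases 1 to 30 shown, and chr1:37568914-37568973, both on the plus strand) were above background on all 8 arrays, and the probe between them (chr1:37577390-37577449, bases 14 to 43 shown) on 0.
Oprm1 probe A_64_P061205: acgctcttttgtattattttccctgatgcc
Oprm1 probe A_64_P061200: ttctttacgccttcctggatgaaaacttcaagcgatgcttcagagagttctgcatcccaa
Oprm1 probe A_64_P032062: gaaaaccaatagAATAAAccaacctgctgg

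Values below are log2 of the processed signal relative to the 75th percentile of the array's own spots, so that 0 is the level of that percentile and each unit is a doubling. A probe was counted as detected where the scanner software marked it as well above background. That percentile lay at an intensity of 806 to 1077 on the TCDD arrays and 756 to 1051 on the control arrays, and 61.7% to 66.6% of probes on TCDD arrays and 65.0% to 66.7% on control arrays were well above background. Across probes, arrays correlated with each other at r of 0.986 to 0.991. The 4 TCDD arrays shared a slide and a scan and the 4 control arrays another, so exposure and slide cannot be told apart in any result below. Of 19 hypothalamic markers, 17 were measured, among them Oxt, Avp, Pmch, Hcrt, Pomc and Agrp. Otp, a hypothalamic transcription factor, was above background on 0 arrays, and Rax, a marker of tanycytes, on 2 TCDD and 3 control arrays. The summed level of 5 red blood cell genes was 187 to 342 in TCDD and 109 to 290 in control dams, and its part in the results was not tested. Because whole tissue was measured, fewer cells that carry a receptor and less of its RNA per cell cannot be told apart.

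Of the 40 receptor genes, 25 were well above background on all 8 arrays, 5 on some arrays only, and 10 on none. A gene entered the test where a probe was above background on all 4 arrays of a group, so 62.5% of the receptor genes were tested, against 63.1% of all gene names on the array. The 25 include both central melanocortin receptors (Mc3r and Mc4r), the Y1 and Y5 receptors that mediate the feeding effect of neuropeptide Y (Npy1r and Npy5r), and galanin receptors 1 and 2 (Galr1 and Galr2). They also include somatostatin receptors 1 to 4 (Sstr1, Sstr2, Sstr3 and Sstr4), both thyrotropin-releasing hormone receptors (Trhr and Trhr2), and both G protein-coupled neurotensin receptors (Ntsr1 and Ntsr2). The 3 receptors for VIP and PACAP (Vipr1, Vipr2 and Adcyap1r1), the substance P receptor Tacr1 and the mu, delta and nociceptin opioid receptors (Oprm1, Oprd1 and Oprl1) were measured as well. The remaining 4 were the vasopressin V1a receptor Avpr1a, the brain-type cholecystokinin receptor Cckbr, the melanin-concentrating hormone receptor Mchr1 and the prokineticin receptor Prokr2.

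**Figure D1:**
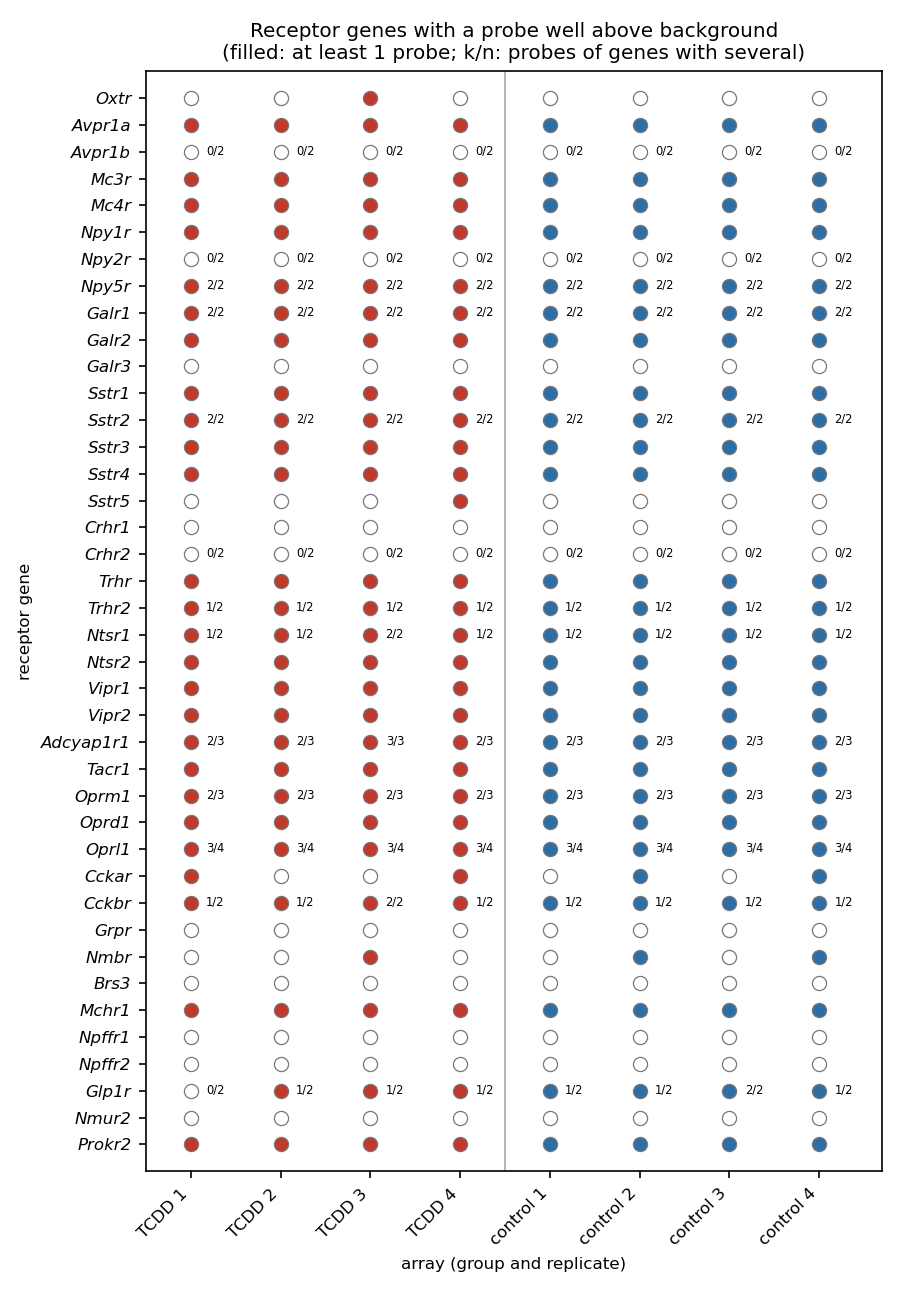
Rows are the 40 receptor genes and columns the 4 TCDD and 4 control arrays. A filled circle marks at least 1 probe well above background, and the fraction beside a circle gives the probes above background for genes with several. Filled rows are the 25 genes measured on all 8 arrays, empty rows the 10 on none, and mixed rows the 5 on some.

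The 10 receptors above background on 0 of 8 arrays were Avpr1b (the V1b receptor of pituitary corticotrophs), Npy2r (a presynaptic receptor of neuropeptide Y neurons), Galr3, and both receptors for corticotropin-releasing hormone and the urocortins (Crhr1 and Crhr2). The others were Grpr and Brs3 of the bombesin family, Npffr1 and Npffr2 for RFamide peptides, and Nmur2 for neuromedin U. Avpr1b, Npy2r and Crhr2 have a pair of probes each, and neither probe of any of them was above background. Galr3, Crhr1, Grpr, Brs3, Npffr1, Npffr2 and Nmur2 have 1 probe each. The 10 were not equally dim. On TCDD replicate 1 Crhr1 gave -5.77, where the dimmest probe well above background lay at -5.94. On control replicate 1 Crhr1 gave -6.28 and the brighter Crhr2 probe -6.03, against -6.45. Crhr1 and Crhr2 were thus near the detection limit, while Avpr1b gave no value above -7.58. For these 10 genes the arrays give an upper bound on the signal of their probes and no comparison. A probe at background does not show that the mRNA was absent. Trhr2, for example, had a probe above background on 0 arrays and another on all 8. These probes carry different transcript accessions, and whether both read the same transcript was not tested.

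The oxytocin receptor gene Oxtr, which mediates milk ejection and maternal behaviour, was above background on TCDD replicate 3 alone. Its log2 signals were -8.01, -7.44, -5.02 and -6.51 on TCDD arrays 1 to 4, and -7.45, -8.32, -8.31 and -7.41 on control arrays 1 to 4. TCDD replicate 3 is the highest and TCDD replicate 4 the next, and both other TCDD values lie among the control values. No array other than TCDD replicate 3 was well above background, so the order of the other values is not read. Sstr5, the fifth somatostatin receptor, was likewise above background on 1 array. Its log2 signals were -6.65, -6.39, -6.43 and -5.80 in TCDD dams, and -7.05, -7.16, -6.26 and -6.09 in control dams. The detected array, TCDD replicate 4, is the highest of the 8, and the groups overlap. No fold is given for Oxtr or Sstr5, since most values of both groups were not well above background. Both genes have 1 probe each.

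Cckar, the cholecystokinin receptor best known from the gut and from satiety, was above background on 2 arrays of each group. Its log2 signals were -5.47, -7.01, -6.16 and -5.37 in TCDD dams, and -6.42, -5.81, -6.57 and -5.67 in control dams. The detected arrays, TCDD replicates 1 and 4 and control replicates 2 and 4, were the highest in both groups, and the groups overlap. Nmbr, the neuromedin B receptor, was above background on 1 TCDD and 2 control arrays. It gave -5.88, -6.36, -5.73 and -5.83 in TCDD dams, and -6.11, -5.52, -5.99 and -5.43 in control dams. The highest values were those of control replicates 2 and 4, and the groups overlap.

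Glp1r, the receptor for the satiety peptide GLP-1, has a pair of probes that point opposite ways. Probe A_64_P018263, whose ends lie at chr20:9258276-9259805 on the plus strand and so span more genome than its own length, was above background on 3 TCDD and 2 control arrays. It gave -6.25, -5.53, -5.51 and -5.67 in TCDD dams, and -6.61, -6.59, -5.85 and -5.74 in control dams. Probe A_44_P521396, which lies 3′ of it at chr20:9263387-9263446, was above background on 0 TCDD and 3 control arrays. It gave -6.72, -6.61, -7.45 and -7.01 in TCDD dams, and -6.38, -5.99, -5.90 and -6.61 in control dams. On the first probe TCDD replicates 2, 3 and 4 lie above every control array, and on the second TCDD replicates 1, 3 and 4 lie below every control array. Both probes are close to the detection floor, and Glp1r is given no direction here.

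None of the 25 measured receptors passed the test between TCDD and control dams. With limma and Benjamini-Hochberg adjustment over all 16574 genes tested, 0 of 25 had an adjusted p under 0.05, where 0.0241% of all genes did (4 genes, all higher in TCDD dams). At an unadjusted p under 0.05 stood 1 receptor, Oprd1, which was higher, against 10.8% of all genes in either direction, 7.95% higher and 2.82% lower. The TCDD and control values did not overlap for 0 receptors, against 7.05% of all genes. The smallest adjusted p of a receptor was 0.452 and the largest 0.998.

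The differences were small in both directions. In TCDD dams 16 receptors were higher and 9 lower, or 64% higher, against 51.5% of all genes tested. The median log2 fold change, TCDD minus control, was 0.026 for the receptors and 0.0042 for all genes. Its median size regardless of sign was 0.061 for the receptors and 0.074 for all genes. A size of 0.2 or more was reached by 2 receptors, Oprd1 and Adcyap1r1, against 16.6% of all genes. The split of the receptors depended on the processing. It was 10 higher and 15 lower with normexp background correction, and 13 higher and 12 lower with quantile normalization or with the authors' value table. The median of all genes moved as well, to -0.012 with normexp and to -0.019 with quantile normalization or the authors' table. Across the receptors the standard error ran from 0.054 to 0.26 with a median of 0.10, and the median SD within a group was 0.16, against 0.12 for all genes. Both groups hold 4 samples that the design text gives as separate dams.

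**Figure D2:**
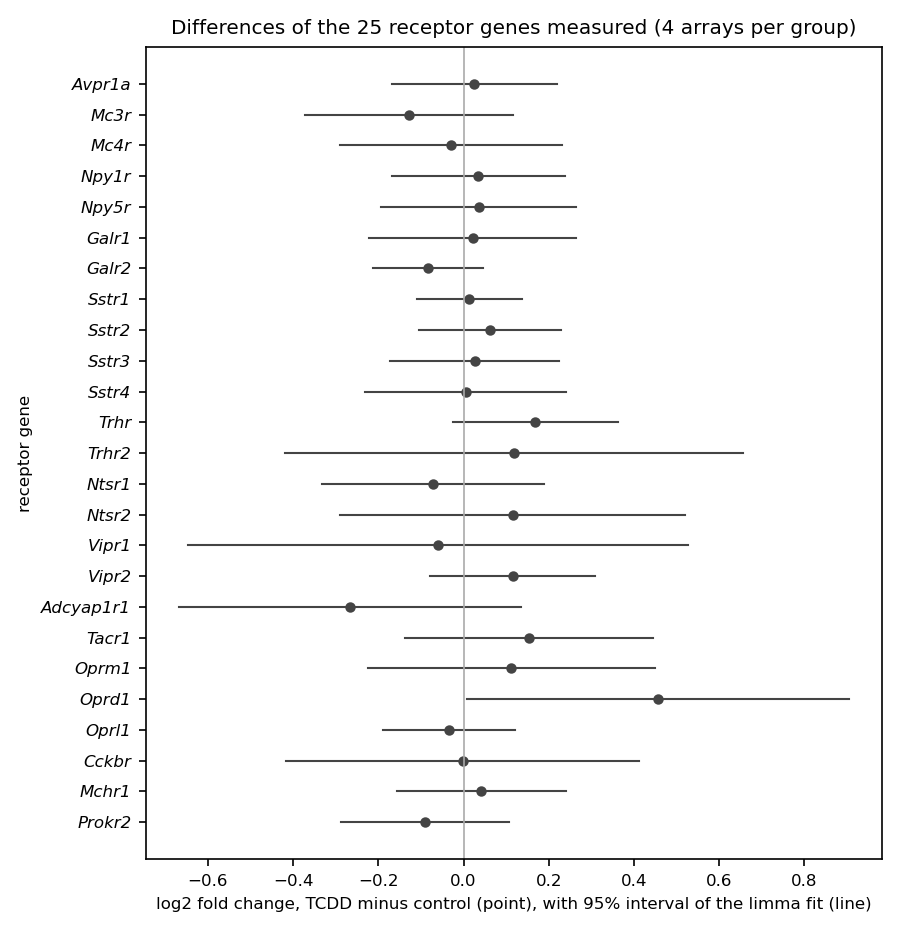
Each row is a measured receptor gene, with the log2 fold change (TCDD minus control) as a point and its 95% interval from the limma fit as a line. The intervals of all but Oprd1 include 0, and none of the 25 passes the adjusted threshold.

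Avpr1a, through which vasopressin acts on social and maternal behaviour, was measured on all 8 arrays. Its log2 signals were -3.20, -3.50, -3.33 and -3.38 in TCDD dams, and -3.24, -3.49, -3.47 and -3.32 in control dams. The groups overlap almost fully. It differed by 0.026 (SE 0.084, adjusted p = 0.958 in limma), with a 95% interval from -0.17 to 0.22. The peptides of this family were both numerically lower in TCDD dams: Oxt averaged 5.70 ± 0.19 in TCDD and 5.92 ± 0.32 in control dams, and Avp 5.72 ± 0.43 in TCDD and 6.27 ± 0.55 in control dams (SD, n = 4 each). Neither passed, with limma adjusted p of 0.715 for Oxt and 0.591 for Avp.

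In the melanocortin system, where POMC-derived peptides curb feeding and AgRP opposes them at the same receptors, neither receptor passed. Mc3r gave -2.56, -2.94, -2.62 and -2.55 in TCDD dams, and -2.57, -2.59, -2.67 and -2.34 in control dams. TCDD replicate 2 is the lowest and control replicate 4 the highest, and the other 6 arrays lie together. The difference of Mc3r was -0.13 (SE 0.11, limma adjusted p = 0.749) and -0.039 without TCDD replicate 2, and that of Mc4r, the receptor whose loss causes obesity, was -0.030 (SE 0.11). Of their peptides, Pomc differed by 0.029 (SE 0.38) and Agrp by -0.28 (SE 0.34).

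Neither measured receptor of neuropeptide Y passed the test. Npy1r gave -1.81, -2.07, -1.68 and -1.94 in TCDD dams, and -1.93, -1.91, -2.00 and -1.80 in control dams. The TCDD arrays hold both the lowest and the highest value. Npy1r differed by 0.035 (SE 0.089, limma adjusted p = 0.940) and Npy5r by 0.035 (SE 0.10). Their peptide gene Npy differed by -0.18 (SE 0.24). Npy5r gave -2.11, -2.55, -2.14 and -2.18 in TCDD dams, against -2.27, -2.30, -2.36 and -2.19 in control dams, with TCDD replicate 2 well below the other 7 arrays.

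Galanin acts through an inhibitory receptor, Galr1, and one that raises calcium, Galr2. Galr2 gave -0.55, -0.69, -0.58 and -0.69 in TCDD dams, and -0.57, -0.58, -0.55 and -0.47 in control dams. TCDD replicates 2 and 4 were the lowest and control replicate 4 the highest, and the groups overlap. Galr2 differed by -0.084 (SE 0.056, limma adjusted p = 0.679), with a 95% interval from -0.21 to 0.045. Galr1 differed by 0.021 (SE 0.11), and the peptide gene Gal by -0.028 (SE 0.097).

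The somatostatin receptors, which inhibit hormone release and neuronal firing, were the largest family here, with 4 of 5 measured. Sstr2 gave 0.38, 0.36, 0.56 and 0.47 in TCDD dams, and 0.52, 0.37, 0.25 and 0.38 in control dams. TCDD replicate 3 is the highest and control replicate 3 the lowest, and the groups overlap. Sstr2 differed by 0.061 (SE 0.073, limma adjusted p = 0.838), Sstr3 by 0.026 (SE 0.086), Sstr1 by 0.014 (SE 0.054) and Sstr4 by 0.0052 (SE 0.10). Sstr1 had the smallest SE of the 25, and its 95% interval ran from -0.11 to 0.14. Their peptide gene Sst had 3.75, 3.93, 4.12 and 4.17 in TCDD dams, and 3.34, 3.53, 3.79 and 3.61 in control dams. TCDD replicate 1 alone lies below the highest control value, and Sst was 0.43 higher (SE 0.12, unadjusted p = 0.00761), which did not pass adjustment (limma adjusted p = 0.237).

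Both receptors for thyrotropin-releasing hormone were numerically higher in TCDD dams without passing. Trhr gave -3.56, -3.80, -3.44 and -3.51 in TCDD dams, and -3.69, -3.68, -3.79 and -3.83 in control dams. Of the TCDD arrays 3 lie above every control array, while replicate 2 lies just below control replicate 3. Trhr differed by 0.17 (SE 0.084, limma adjusted p = 0.537, exact permutation p = 0.114), and by 0.0016 with normexp background correction. Trhr2, a second receptor of rodents, differed by 0.12 (SE 0.23) on its only measured probe, or by -0.10 without control replicate 4. The hormone gene Trh had 1.24, 0.79, 1.33 and 1.11 in TCDD dams, and 0.74, 0.88, 0.98 and 0.74 in control dams. TCDD replicate 2 lies among the control values and the other 3 above them, and Trh was 0.29 higher (SE 0.12, unadjusted p = 0.0433, limma adjusted p = 0.444), which is no pass. Trhr is also abundant in pituitary thyrotrophs. Of 11 pituitary markers 4 were measured, and the summed level of the list, in multiples of each array's 75th percentile, ranged from 2.70 to 45.6 in TCDD and from 1.42 to 34.6 in control dams. It was high on TCDD replicates 2 and 4 and control replicate 4, where Trhr was -3.80, -3.51 and -3.83, the second lowest, second highest and lowest of the 8. Among the markers not measured, Prl and Gh1 were each above background on 3 TCDD arrays and 1 control array. The pituitary transcription factor Pou1f1 was above background on 0 arrays. The part of pituitary RNA in Trhr was not tested.

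The neurotensin receptors split in sign. Ntsr2, which rodent astrocytes also express, gave 4.45, 3.88, 3.82 and 4.21 in TCDD dams, and 3.93, 3.76, 4.37 and 3.83 in control dams. Each group holds high and low arrays over the same range. Ntsr2 differed by 0.12 (SE 0.18, limma adjusted p = 0.883) and by -0.0042 without TCDD replicate 1. Ntsr1, the high-affinity receptor, differed by -0.072 (SE 0.11), by -0.018 without TCDD replicate 3 and by -0.18 without control replicate 4, and the peptide gene Nts by -0.091 (SE 0.25).

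Adcyap1r1, the PACAP-selective receptor, had the largest difference toward lower signal. It gave -4.46, -4.20, -4.17 and -4.26 in TCDD dams, and -4.02, -4.26, -3.47 and -4.27 in control dams. Control replicate 3 stands above the other 7 arrays, control replicate 1 is next, and control replicates 2 and 4 lie at the level of the TCDD arrays. The difference was -0.27 (SE 0.17, limma adjusted p = 0.673), and -0.088 without control replicate 3. Its second measured probe, 3′ of the first, differed by -0.032 (SE 0.12). Vipr2, the VIP receptor of the suprachiasmatic clock, differed by 0.12 (SE 0.084), and Vipr1 by -0.059 with the largest SE of the 25, 0.26. The gene of PACAP, Adcyap1, differed by -0.19 (SE 0.092, limma adjusted p = 0.528), and Vip by -0.18 (SE 0.44).

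Oprd1, the delta receptor for enkephalins, had the largest difference of the 25. It gave -5.49, -5.31, -5.07 and -4.82 in TCDD dams, and -6.08, -5.67, -5.31 and -5.45 in control dams. TCDD replicates 3 and 4 lie clearly above every control array, TCDD replicate 2 is level with control replicate 3, and TCDD replicate 1 lies below control replicates 3 and 4. It averaged -5.17 ± 0.29 in TCDD and -5.63 ± 0.34 in control dams (SD, n = 4 each), a 1.37-fold higher signal and a log2 fold change of 0.46 (SE 0.19, 95% interval 0.0082 to 0.90). Oprd1 did not pass adjustment (unadjusted p = 0.0468, limma adjusted p = 0.452, exact permutation p = 0.114). Its signal was close to the dimmest probes well above background, at -5.94 to -6.68 on the 8 arrays, and normexp background correction gave 0.073 (adjusted p = 0.944).

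The enkephalin gene Penk differed by 0.021 (SE 0.085). Oprm1, the mu receptor for endorphin and morphine, differed by 0.11 (SE 0.15), and Oprl1, the nociceptin receptor, by -0.034 (SE 0.067). Oprd1 is also expressed in cortex. The summed level of 5 cortical markers ranged from 0.229 to 0.315 in TCDD and from 0.209 to 0.227 in control dams, while the mean log2 level of the same markers overlapped. The sum was highest on TCDD replicate 4, where Oprd1 was highest, but lowest of the TCDD arrays on replicate 3, where Oprd1 was second, and highest of the control arrays on replicate 1, where Oprd1 was lowest. Of these markers Emx1 (0.23 higher, SE 0.051, limma adjusted p = 0.154) and Neurod6 (0.066, SE 0.30) were measured, Tbr1 and Slc17a7 were above background on 0 arrays, and the part of cortical RNA in Oprd1 was not tested.

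**Figure D3:**
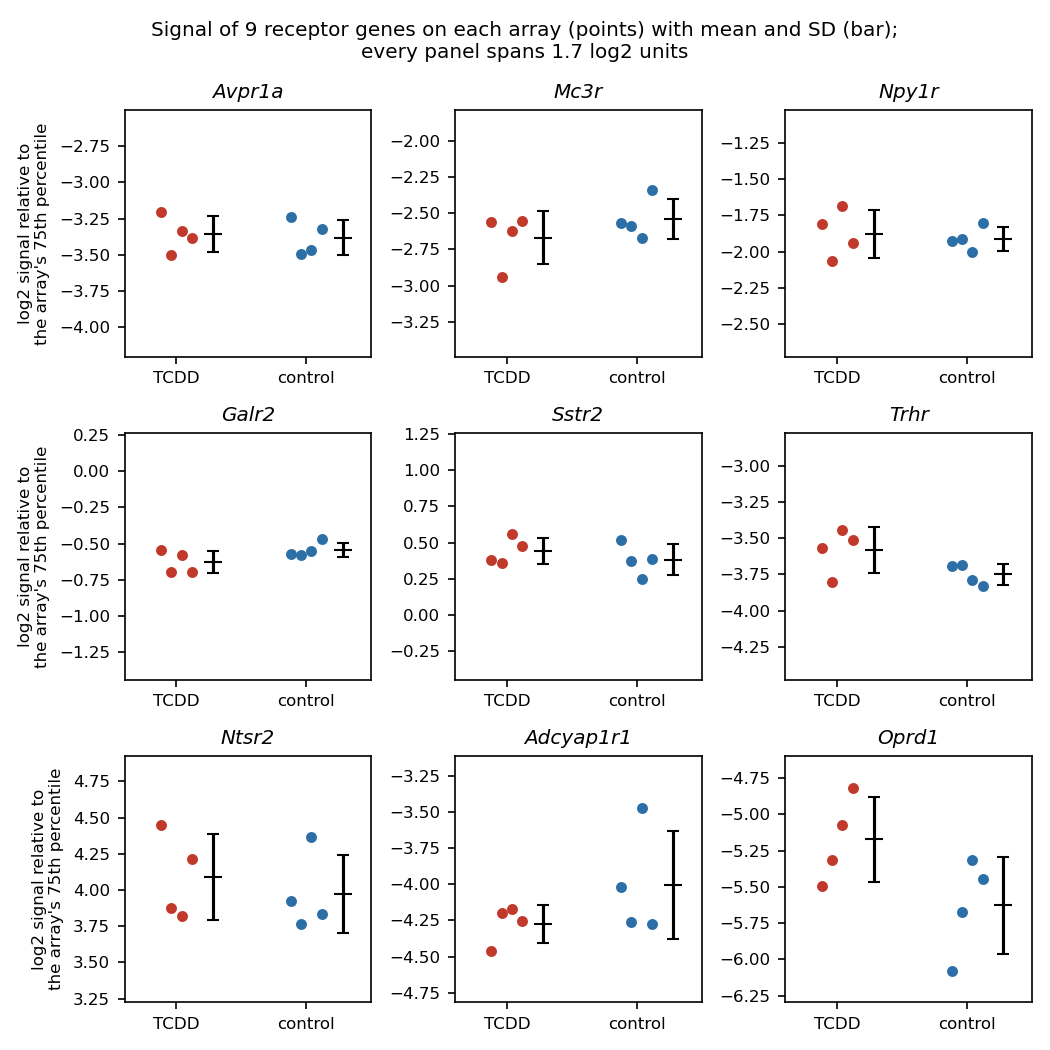
Points are the log2 signals of 9 receptor genes on the 4 TCDD arrays (left) and 4 control arrays (right) relative to each array's 75th percentile, with the mean and SD beside them, and every panel spans the same log2 range. The groups overlap in all 9 panels, with the widest separation for Oprd1 (-5.17 in TCDD and -5.63 in control dams).

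The remaining measured receptors belong to systems with 1 measured member. Tacr1, the substance P receptor, differed by 0.15 (SE 0.13, limma adjusted p = 0.749) and by 0.040 without control replicate 4, and its peptide gene Tac1 by -0.0020 (SE 0.059). Cckbr differed by -0.0022 (SE 0.18) and its peptide gene Cck by 0.11 (SE 0.31). Mchr1, which promotes feeding, differed by 0.042 (SE 0.086) and its peptide gene Pmch by 0.070 (SE 0.069). Prokr2, which is expressed in the suprachiasmatic nucleus, differed by -0.090 (SE 0.086), and its peptide genes Prok1 and Prok2 were not above background. Neither was Gcg, the gene of GLP-1, while Nmb, the ligand gene of Nmbr, differed by -0.17 (SE 0.22).

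Of the 40 receptors, 13 had several probes, and probes of a gene often disagreed. In 6 of the 13 (Adcyap1r1, Cckbr, Ntsr1, Oprl1, Oprm1 and Trhr2) a probe was above background on all 8 arrays and another on fewer, and in 6 of 6 the probe nearest the 3′ end was one of those on all 8. The Cckbr, Ntsr1 and Oprm1 sequences shown at the start are of this kind. For Adcyap1r1, Oprl1 and Oprm1 a probe further from the 3′ end was also on all 8 arrays. For Glp1r, outside this count, the 3′ probe was above background on 3 arrays and the other on 5. The share over all genes of the array was not counted. All probes of Galr1, Npy5r and Sstr2 were on all 8 arrays. Where a gene had at least 2 passing probes, the differences lay on both sides of 0 for 3 of 6: from -0.32 to 0.11 for Oprm1, from -0.13 to 0.076 for Oprl1 and from -0.11 to 0.061 for Sstr2. The pair of probes of Galr1, with 14704 bases between their outer ends, gave 0.021 and 0.027. A gene counted as measured where any of its probes passed.

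The receptors differed between arrays of a group. TCDD replicate 2 had the lowest signals, with a median deviation of -0.080 from each receptor's own mean, 5 of 25 receptors above that mean, and the lowest of 8 values for 9 receptors. The other TCDD arrays had median deviations of 0.040, 0.058 and 0.061, and the control arrays of 0.013, -0.017, -0.046 and -0.028. The median deviation of all genes stayed between -0.014 and 0.026 on the 8 arrays. TCDD replicate 1 held the highest value for 8 receptors and control replicate 4 the lowest for 6. Mc3r, Mc4r, Npy5r, Galr1 and Cckbr had their lowest value on TCDD replicate 2, and Vipr1 and Vipr2 their highest. TCDD replicate 2 also had the highest summed level of the pituitary list (45.6). The same held for 7 choroid plexus markers (4.51, against 1.32 to 2.80 in control dams). Summed levels of thalamus and cortex markers were highest on other arrays. The part of such tissue in the receptor signals was not tested.

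**Figure D4:**
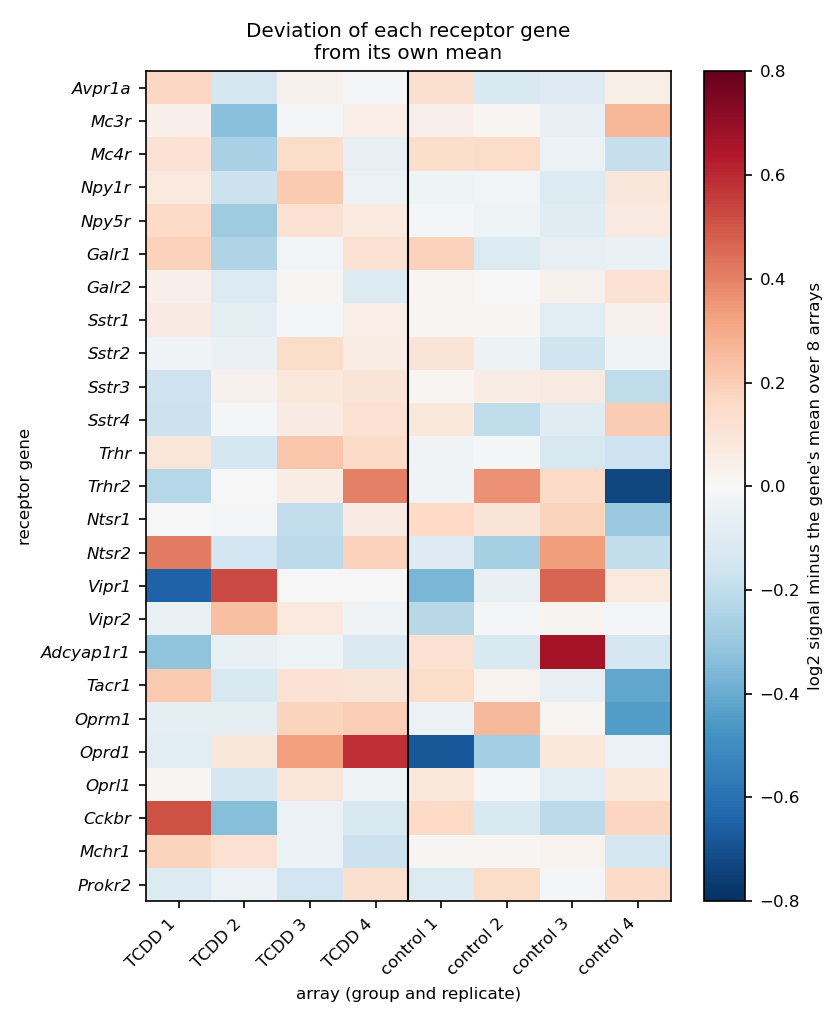
Each cell is the log2 signal of a measured receptor gene on an array minus that gene's mean over the 8 arrays (red above, blue below, scale ±0.8), with TCDD arrays left of the line and control arrays right. TCDD replicate 2 is mostly blue (5 of 25 receptors above their mean), and no receptor separates the groups.

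No peptide gene, other peptide receptor or signalling gene of the same pathways passed the adjusted test. Of 34 peptide genes 33 are on the array and 30 were measured, with 14 higher and 16 lower, a median of -0.013, and 0 past the adjusted threshold. At an unadjusted p under 0.05, 2 were higher (Sst and Trh) and 0 lower, against 7.95% of all genes higher and 2.82% lower. Of 42 further peptide receptors 39 are on the array and 21 were measured, with 9 higher and 12 lower, a median of -0.025, and 0 called. One of these, Rxfp3, the relaxin-3 receptor, had an unadjusted p under 0.05, against 10.8% of all genes. It gave -2.45, -1.73, -2.38 and -1.59 in TCDD dams, and -7.53, -6.16, -2.36 and -6.30 in control dams. It was above background on all 4 TCDD arrays and on control replicate 3, which lies within the TCDD range. On the other control arrays it was not well above background. The adjusted p was 0.231 with limma, and leaving out control replicate 3 gave 1 call in this list. Rxfp3 entered the test through the TCDD arrays alone, and both values rest on control signals that were not well above background. With a filter on all 8 arrays 0 genes of this list stood at an unadjusted p under 0.05.

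Of 45 G protein, arrestin and related signalling genes 44 are on the array and 39 were measured, with 18 higher and 21 lower, a median of -0.013, and 0 called. Gnal, the olfactory and striatal stimulatory G protein subunit, had -0.82, -1.04, -0.77 and -0.85 in TCDD dams, and -1.13, -1.13, -1.05 and -1.10 in control dams. Its groups did not overlap, and it was 0.23 higher (SE 0.067, limma adjusted p = 0.242). Gnb2, a G protein beta subunit, had 1.39, 1.15, 1.35 and 1.29 in TCDD dams, and 1.51, 1.43, 1.42 and 1.44 in control dams. All 4 TCDD values were lower, by -0.15 (SE 0.063, limma adjusted p = 0.421). Neither passed, and 5.33% of all genes were wholly higher and 1.72% wholly lower.

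**Figure D5:**
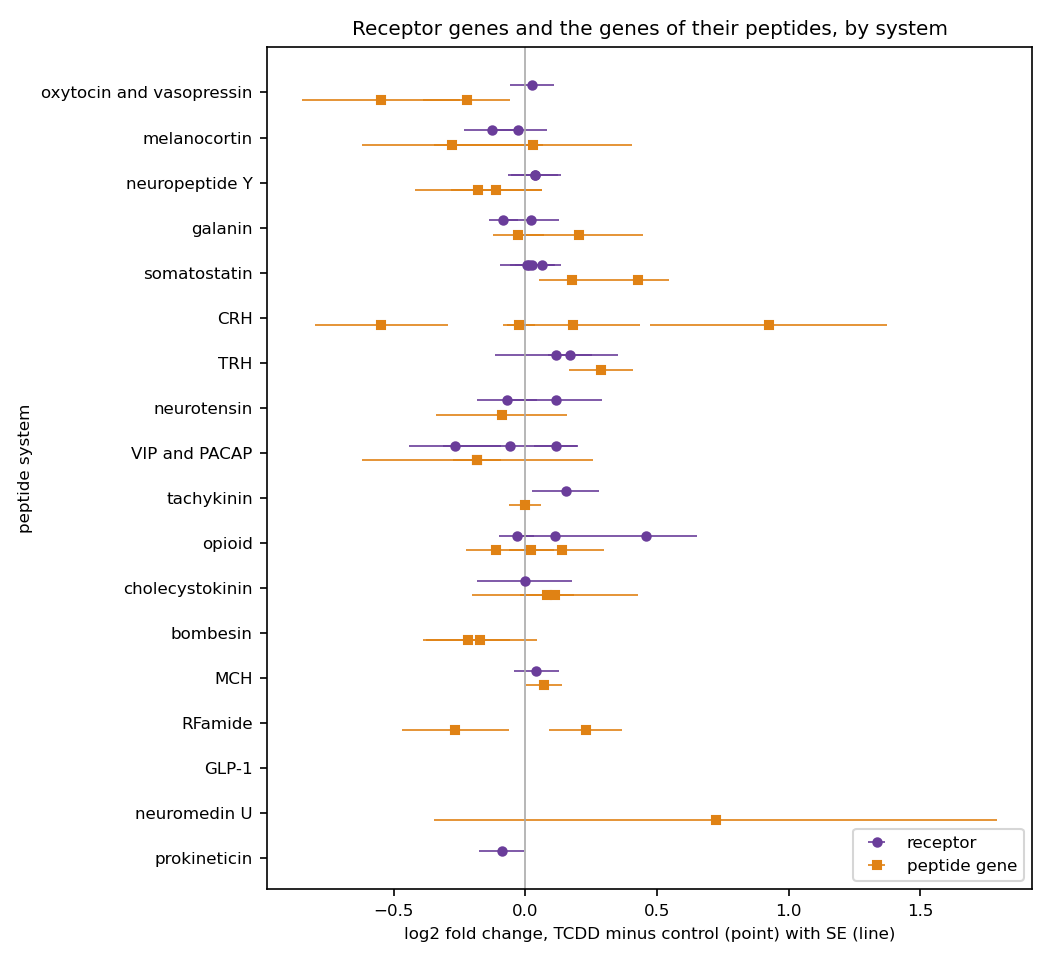
Each row is a peptide system, with the log2 fold change (TCDD minus control) and SE of its measured receptors (circles) and of the genes of its peptides (squares). Receptors lie between -0.27 and 0.46, and the peptide genes spread wider, with Ucn3 at 0.92 and Ucn and Avp at -0.55 (none passing the test).

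A promoter search was made because the aryl hydrocarbon receptor binds dioxin response elements, whose core is GCGTG. In the RefSeq promoter sequences of assembly GRCr8, from 250 bases before to 50 after the gene start, 33 of the 40 receptors had an entry, 3 of them more than 1. A gene with several entries was counted once, as holding the letters if any entry did. On either strand, 11 of the 33 (33.3%) held the letters GCGTG, against 32.4% of 27457 genes with promoters of the same length. The median log2 fold change was 0.0094 over the 8 measured receptors with the letters and 0.026 over the 12 without. A match of 5 letters describes the sequence in this window and says nothing of binding.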

How the data were processed

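Hypothalamic RNA of 4 TCDD-exposed and 4 control dams was measured on Agilent Whole Rat Genome 4x44K arrays with Cy3-labelled cRNA. Per the labels' protocols, tissue was placed in RNAlater and RNA was extracted with RNeasy kits. Each scanner file lists linear spot intensity as deposited, produced by Agilent Feature Extraction 10.7.1.1 with probe positions on rn4 (per the file headers). Background had been subtracted from the processed signal, and spots at background hold a surrogate (per the file headers). The authors' deposited value table, also intensity, has the same median (65.1) in all 8 columns. No source used here states its normalization or centring. It was an alternative only.

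The 1377 control spots were left out, and the other 42877 spots were averaged per probe. A spot flagged as an outlier was dropped only where its probe had an unflagged spot on the same array. Other flagged spots were kept, and 1390 of 30367 probes had several spots. Each processed signal was divided by its array's 75th percentile over the 42877 spots and put on the log2 scale. A probe passed if well above background on all 4 arrays of a group, which 19102 of 30367 did. A gene took its brightest passing probe, giving 16574 genes. Groups were compared with limma 3.58.1 (lmFit then eBayes, both directions, no covariate), run under R 4.3.3, with Benjamini-Hochberg adjustment over all 16574 genes and a threshold of 0.05, and checked on simulated data. Exact permutation tests were 2-sided over 70 assignments, with a smallest p of 0.0286. Promoters came from RefSeq, and 39 of 40 symbols were in its table. Alternatives concerned background correction, scaling, filter, probes, variance model, array weights, replicate block and left-out arrays. Plots used matplotlib 3.10.9 under Python 3.11.15. The 40 members, the peptide, receptor and signalling lists and the marker lists were chosen with earlier results of these data known. Values on every array are given for Oxtr and Avpr1a, for receptors at an unadjusted p under 0.05, for those above background on some arrays only, and for the smallest p of each family with at least 2 tested. Npy5r was added after its values were seen. Precision is limited by the number of arrays.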

Additional observations from a re-analysis of the deposited data

Results flagged for a closer look

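Of 60 groups of 4 arrays examined for the receptors, 4 held an array that stood apart from the other 3, where chance alone flags about 1 in 20. Npy5r was low on TCDD replicate 2 at -2.55, with -2.18 the nearest TCDD value. Ntsr1 was low on control replicate 4 at -1.05, against -0.65 for the nearest control array. Vipr2 was low on control replicate 1 at -2.00, against -1.80 for the nearest. Mchr1 was low on control replicate 4 at -3.71, against -3.57 for the nearest. In each case the gap was 0.837, 0.848, 0.839 and 0.858 of the group's whole range, in the order given.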

How the results depend on the processing

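Over 19 alternatives, of which the 75th percentile over probes was chosen after seeing the data, limma called 0 receptors, 0 peptide genes and 0 signalling genes, and the lowest adjusted p of a receptor was 0.140 (Oprd1 with the replicate number as a block). Between 0 and 3 receptors stood at an unadjusted p under 0.05. The number of other peptide receptors called was 0 to 1 when single arrays were left out. Of the 25 receptors 9 kept their sign throughout, and the median of the receptors ran from -0.018 (normexp) to 0.055. Receptors measured were 25, 40 with no filter, and 26 without TCDD replicate 1, control replicate 4 or replicate 1 of both groups. Over all genes the 4 calls became 20 with normexp, 34 with trend and robust variance, and 91 with array weights. With no filter, and with the replicate block, 0 genes were called. Calls ran from 0 to 8 when single arrays were left out, and were 2 without replicate 1 of both groups. The cause was not tested. At an unadjusted p under 0.05 stood 1080 genes with normexp, 1764 with trend and robust variance, and 2282 with array weights. The numbers were 2031 with no filter and 2139 with the replicate block.

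The sign turned with normexp for Avpr1a (-0.030), Npy1r (-0.018), Galr1 (-0.0014), Sstr4 (-0.038), Oprm1 (-0.056) and Mchr1 (-0.051). With quantile normalization and the authors' table it turned for Avpr1a (-0.022 and -0.022), Sstr1 (-0.0011 and -0.0012) and Sstr4 (-0.035 and -0.035), and with the percentile over probes for Sstr1 (-0.00016) and Sstr4 (-0.0086). The mean of probes turned Sstr2 (-0.026) and Oprm1 (-0.10), and array weights turned Oprl1 (0.020), Cckbr (0.043) and Mchr1 (-0.022). Without replicate 1 of both groups it turned for Npy5r (-0.0066), Sstr1 (-0.0012), Ntsr2 (-0.020), Vipr1 (0.014) and Mchr1 (-0.0024). With single arrays left out the difference ran from -0.025 to 0.075 for Avpr1a, -0.096 to 0.053 for Mc4r, -0.030 to 0.099 for Npy1r, -0.0093 to 0.14 for Npy5r, -0.036 to 0.11 for Galr1, -0.013 to 0.041 for Sstr1, -0.037 to 0.086 for Sstr3, -0.061 to 0.074 for Sstr4, -0.10 to 0.26 for Trhr2, -0.0042 to 0.25 for Ntsr2, -0.24 to 0.15 for Vipr1, -0.019 to 0.22 for Oprm1, -0.071 to 0.0059 for Oprl1, -0.17 to 0.11 for Cckbr, and -0.011 to 0.11 for Mchr1. The sign held over single arrays left out at -0.17 to -0.039 for Mc3r, -0.11 to -0.060 for Galr2, 0.018 to 0.11 for Sstr2, 0.12 to 0.24 for Trhr, -0.18 to -0.018 for Ntsr1, 0.055 to 0.15 for Vipr2, -0.36 to -0.088 for Adcyap1r1, 0.040 to 0.23 for Tacr1, 0.31 to 0.56 for Oprd1 and -0.15 to -0.054 for Prokr2.

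Same-numbered TCDD and control arrays had deviations that correlated at -0.045 to 0.23, and other pairs at -0.33 to 0.33. Of the 8 arrays, 3 correlated best with their own number. In both groups the replicate number is also the position of the array on its slide. So few arrays cannot decide whether the numbers carry a shared effect, and the main fit used no pairing. The 10 receptors above background on 0 arrays have only an upper bound on the signal of their probes.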
